A study of Mus musculus with 13 samples.

Results

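Lyn and Cd72 encode proteins of B-cell signalling, and Pax5 encodes a B-lineage transcription factor. All 3 were found among the 56923 gene IDs counted in each library. They were chosen by their measured difference between PSGL1_KO and vector libraries, so their values in that comparison are given as a description, without a test. The RNA is from CD45-positive cells, taken by flow cytometry out of tumours grown under the skin from EL4, a T-cell lymphoma line of the mouse. T cells carry CD45, so the sort may hold tumour cells beside host leukocytes. The vector group held 7 libraries from tumours of EL4 cells carrying a vector, and the PSGL1_KO group held 6 libraries from tumours of EL4 cells lacking PSGL1, the selectin ligand encoded by Selplg. In both groups 500000 cells were placed under the skin of mice aged 6 to 8 weeks, and tumours were taken about 20 days later. The mice received the edited line and were not described as edited themselves, and neither their strain nor whether the knockout line was a single clone or a pool is stated in the labels. The title of the series concerns PSGL-1 of the tumour and phagocytosis by macrophages.

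In B cells, Lyn is a Src-family kinase that phosphorylates the activation motifs of the antigen receptor at the start of signalling. The same kinase phosphorylates inhibitory tyrosine motifs in the tails of co-receptors, among them CD72, a C-type-lectin-like membrane protein whose tail then recruits the phosphatase SHP-1. Pax5 is the transcription factor that commits lymphoid progenitors to the B lineage and holds that identity until plasma-cell differentiation. Lyn is also abundant in macrophages, monocytes and other myeloid cells, and some macrophages carry CD72, whereas Pax5 is largely restricted to B cells among leukocytes.

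The names of IDs could be relied on only in parts of the genome, and the 3 genes lie in such a stretch. Between 3537090 and 59761439 on GRCm38 chromosome 4, 54.0% of 328 protein-coding IDs reached 20 CPM (counts scaled to a common library total), and in stretches of chromosomes 6 and 15 the shares were 46.0% and 55.6%. Outside them 17.1% of protein-coding IDs did. Rps20, a ribosomal protein gene next to Lyn, had 8561 ± 2060 CPM (SD, n = 7) in vector libraries. The ID of the targeted gene, Selplg, lies outside these stretches, with 11 to 53 counts in vector and 3 to 63 in PSGL1_KO libraries, so it does not check the labels. Libraries held 3710817 to 5712566 counts over gene IDs, and no 2 libraries of a group agreed within sampling noise. The titles do not say that each library came from its own mouse, so errors and p-values describe only how these libraries spread, which may be technical.

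The promoters of Cd72 and Pax5 are shown because the levels of these genes are compared below. The 250 bases before the RefSeq start are given 5′ to 3′ on the gene's strand in GRCm38.p6, with capitals where a PU.1-type Ets core, GAGGAA, was matched on either strand. Sequences were in the RefSeq table for 2 of the 3 genes.
Cd72, chr4:43454627-43454876 (- strand): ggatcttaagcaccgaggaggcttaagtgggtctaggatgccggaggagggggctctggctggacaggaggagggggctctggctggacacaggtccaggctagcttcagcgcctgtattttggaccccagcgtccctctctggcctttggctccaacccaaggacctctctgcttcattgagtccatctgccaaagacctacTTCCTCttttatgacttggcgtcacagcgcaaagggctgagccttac
Pax5, chr4:44710695-44710944 (- strand): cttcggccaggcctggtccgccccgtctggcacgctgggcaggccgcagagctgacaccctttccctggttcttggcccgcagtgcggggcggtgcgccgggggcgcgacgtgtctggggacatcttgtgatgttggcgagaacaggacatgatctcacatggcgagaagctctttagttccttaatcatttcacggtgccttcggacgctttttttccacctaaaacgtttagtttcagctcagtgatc
The Cd72 window held 1 match to the Ets core, at 47 to 42 bases before the start, and the Pax5 window held 0. PU.1 is an Ets factor of myeloid cells and B cells. The core was present in 23.3% of the 32851 promoter windows of this length. Both windows had 0 matches to the E-box CAGGTG, present in 17.2% of windows. They also had 0 matches to the start of the octamer bound by Oct factors, ATGCAAA, present in 4.1%. Both strands were searched for each motif. The motifs searched do not overlap each other in these windows, and a match is a description of letters only.

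Lyn (ENSMUSG00000042228.15, chr4:3678115-3813122, + strand) was about 4 times as abundant in PSGL1_KO as in vector libraries. Levels are CPM normalised with TMM factors, which align the bulk of the tested IDs between libraries. Most of these IDs lie outside the stretches where names could be relied on. Vector libraries held 42.6 CPM of Lyn at the lowest, 56.8 CPM at the median and 76.0 CPM at the highest. PSGL1_KO libraries held 150.3, 257.3 and 304.6 CPM. All 6 PSGL1_KO libraries lay above all 7 vector libraries, and PSGL1_KO replicate 3, the lowest of its group, was still 1.98 times the highest vector library, replicate 3. The group means were 58.2 ± 10.8 CPM (SD, n = 7) and 244.9 ± 55.9 CPM (SD, n = 6), and the log2 fold change (log2FC, PSGL1_KO minus vector) was 2.08 ± 0.15 (SE) with the file number as a covariate. The file number is the first digit of the number in each deposited file's name, 3 or 7, and no label says what it stands for. Exons of Lyn share 248 of 4073 bases with a noncoding gene on the opposite strand, Gm26857, which is not analysed here.

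Cd72 (ENSMUSG00000028459.12, chr4:43446462-43454628, - strand) differed between the groups by a similar factor. In vector libraries its lowest, median and highest values were 23.5, 48.9 and 66.0 CPM. In PSGL1_KO libraries they were 137.5, 242.9 and 312.1 CPM. All PSGL1_KO libraries were above all vector libraries, and the lowest of them, replicate 2, was 2.08 times the highest vector library, replicate 3. Means were 47.5 ± 17.44 CPM (SD, n = 7) and 228.7 ± 70.4 CPM (SD, n = 6), a 4.82-fold ratio and a log2FC of 2.34 ± 0.12 (SE).

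Pax5 (ENSMUSG00000014030.16, chr4:44524757-44710487, - strand) had low counts in every library, 15 to 101 reads, and its groups overlapped. Vector libraries held 3.84 CPM at the lowest, 6.91 CPM at the median and 12.2 CPM at the highest. PSGL1_KO libraries held 7.04, 12.9 and 18.8 CPM. Of the 6 PSGL1_KO libraries, 3 were above the highest vector library, and PSGL1_KO replicate 5, the lowest of its group, was inside the vector range. Means were 8.06 ± 3.03 CPM (SD, n = 7) and 13.1 ± 4.06 CPM (SD, n = 6), with a log2FC of 0.68 ± 0.26 (SE). The log2FC was 0.51 without PSGL1_KO replicate 3, the library with the highest Pax5, and 0.84 without vector replicate 2. Exons of Pax5 share 636 of 8853 bases with 5730488B01Rik and 125 with Gm12462, an unclassified and an antisense gene on the opposite strand that were at 0 CPM in every library.

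**Figure D1:**
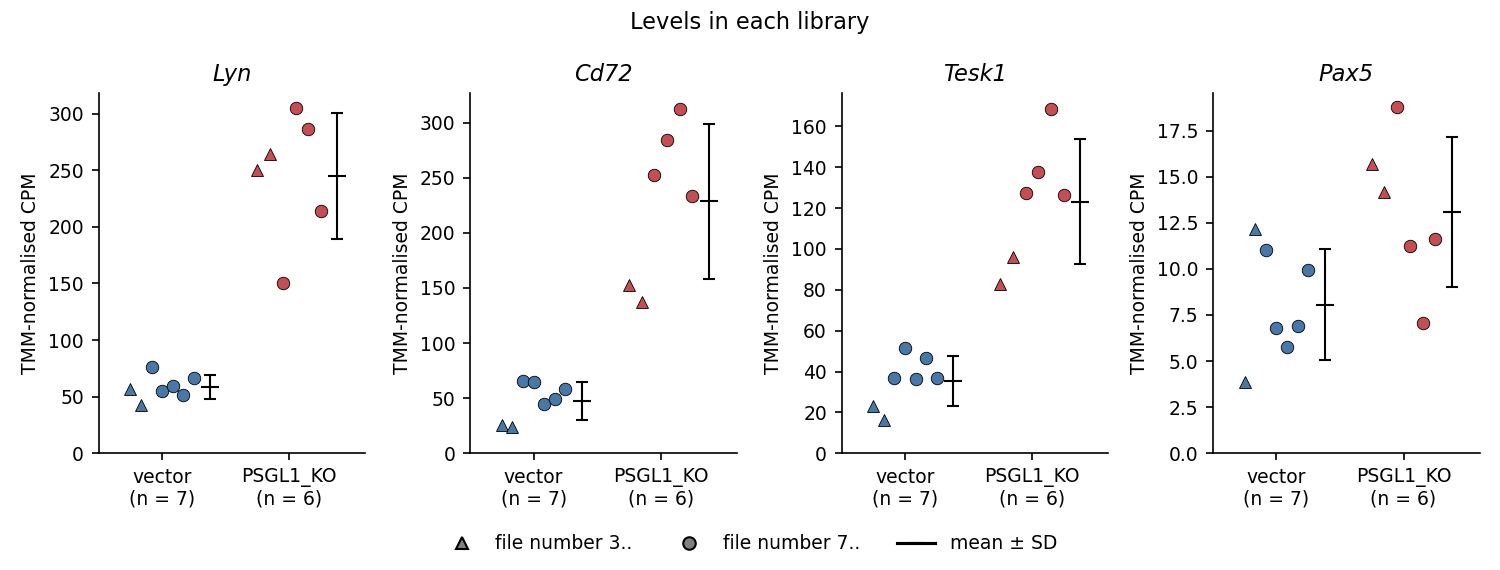
Each point is 1 library, with TMM-normalised CPM on the vertical axes (each from 0) and the black bar giving mean ± SD. Triangles are file number 3 and circles file number 7. Lyn, Cd72 and Tesk1 show no overlap between vector and PSGL1_KO, whereas PSGL1_KO values of Pax5, from 7.04 to 18.8 CPM, overlap the vector values, from 3.84 to 12.2 CPM.

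For reference, 25.8% of the 10422 IDs tested passed an adjusted p under 0.05 between the groups in edgeR's quasi-likelihood test, and 40.3% of the 375 tested IDs of the checked stretches did (30.4% higher and 9.87% lower in PSGL1_KO). Complete separation with all PSGL1_KO libraries higher, seen in 2 of the 3 genes, occurred in 4.14% of all tested IDs and in 10.1% of those in the checked stretches. The choice of the genes used this contrast, so nothing is read from these shares. The median log2FC was -0.02 over all IDs tested and 0.19 over the 306 protein-coding genes of the checked stretches. Among those 306 genes, ranked from the highest log2FC down, Cd72 was number 3, Lyn number 4 and Pax5 number 62.

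Levels between genes were compared per kilobase of annotated exon. For Cd72, 1423 of the 3422 exon bases are shared with Tesk1. Whether reads there were counted is not stated, so the level of Cd72 per kb is uncertain. The ratio of Lyn to Cd72 also differed between file numbers, as given below. In vector libraries Lyn had 14.3 ± 2.64 CPM per kb (SD, n = 7) and Cd72 13.9 ± 5.10, which differ by less than the spread between libraries. Pax5 had 0.91 ± 0.34 CPM per kb. In PSGL1_KO libraries Cd72 had 66.8 ± 20.6 and Lyn 60.1 ± 13.7 CPM per kb (SD, n = 6), again closer than their spread, and Pax5 1.48 ± 0.46. By this level Lyn moved from place 195 to 74 and Cd72 from 197 to 66 of the 306 protein-coding genes, and Pax5 stayed near the bottom, at 283 and 285. Counts of Pax5 per 100 counts of Cd72 ran from 10.5 to 51.9 in vector and from 2.25 to 10.3 in PSGL1_KO libraries. The genes were chosen by this contrast, so these ratios are a description. In bulk RNA, fewer cells of a type and less RNA per cell cannot be told apart.

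Tesk1, a kinase of actin regulation, lies on the + strand at chr4:43441939-43448064, and its last exons overlap those of Cd72. The shared exon sequence is 1423 bases, 41.6% of the exon bases of Cd72 and 32.1% of those of Tesk1. No label states whether the counting used strand, so reads from the shared part cannot be assigned to either gene. Tesk1 had 16.3, 36.6 and 51.4 CPM at the lowest, median and highest in vector libraries and 82.6, 126.9 and 168.5 CPM in PSGL1_KO libraries. As for Cd72, all PSGL1_KO libraries were above all vector libraries, and the log2FC was 1.87 ± 0.13 (SE).

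The balance between the overlapping pair was not constant. For every 100 counts of Cd72, vector libraries had 55.8 to 95.6 counts of Tesk1, with a median of 79.1. PSGL1_KO libraries had 48.4 to 69.8, with a median of 54.1. The ranges overlap, and the 4 PSGL1_KO libraries of file number 7 were all below the vector libraries. So was PSGL1_KO replicate 1 of file number 3, at 54.2, while PSGL1_KO replicate 2, at 69.8, lay inside the vector range.

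Both members of the overlapping pair were higher in libraries of file number 7 than of file number 3, a comparison that the choice of the genes did not use. With the groups in the model, Cd72 was higher by 1.04 ± 0.14 on the log2 scale (SE, 95% interval 0.76 to 1.32), with adjusted p = 7.7e-06 in the edgeR test over all IDs. Of all IDs tested, 39.8% differed between file numbers at an adjusted p under 0.05, and 46.1% of those in the checked stretches. Higher calls in file number 7 made up 20.9% and 13.1%, against 1 of the 3 genes chosen. Vector libraries had 24.7 ± 1.67 CPM of Cd72 in file number 3 (n = 2) and 56.6 ± 9.56 CPM in file number 7 (n = 5). PSGL1_KO libraries had 145.0 ± 10.6 CPM (n = 2) and 270.5 ± 34.8 CPM (n = 4). The order of the 4 sets was the same as that of Tesk1, with 19.8, 41.5, 89.3 and 140.0 CPM. For Tesk1 the file-number difference was 0.84 ± 0.15 with adjusted p = 0.00016 in the edgeR test.

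Lyn and Pax5 showed no detectable difference between file numbers. For Lyn the difference, file number 7 minus 3, was 0.09 on the log2 scale, and its 95% interval ran from -0.25 to 0.43 (adjusted p = 0.68 in the edgeR test). Vector libraries had 49.7 ± 10.0 CPM of Lyn in file number 3 and 61.7 ± 9.86 CPM in file number 7, and PSGL1_KO libraries 257.3 ± 9.84 and 238.7 ± 70.8 CPM. For Pax5 the difference was -0.16, and its interval ran from -0.74 to 0.41 (adjusted p = 0.66). The sign of both turned under some alternatives, as given with the alternatives.

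Counts of Lyn relative to Cd72 separated the file numbers without overlap. For every 100 counts of Cd72, the libraries of file number 3 had 220 and 181 counts of Lyn in vector and 164 and 192 in PSGL1_KO. Those of file number 7 had 84.5 to 132 in vector and 59.5 to 107 in PSGL1_KO. The mean log2 ratio was higher in file number 3 by 0.96, with p = 0.00317 in a two-sided exact permutation test within groups (4 against 9 libraries). That is the smallest p these 315 arrangements allow, and the test was chosen after the values had been seen. Leaving out any 1 library gave differences from 0.88 to 1.03.

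**Figure D2:**
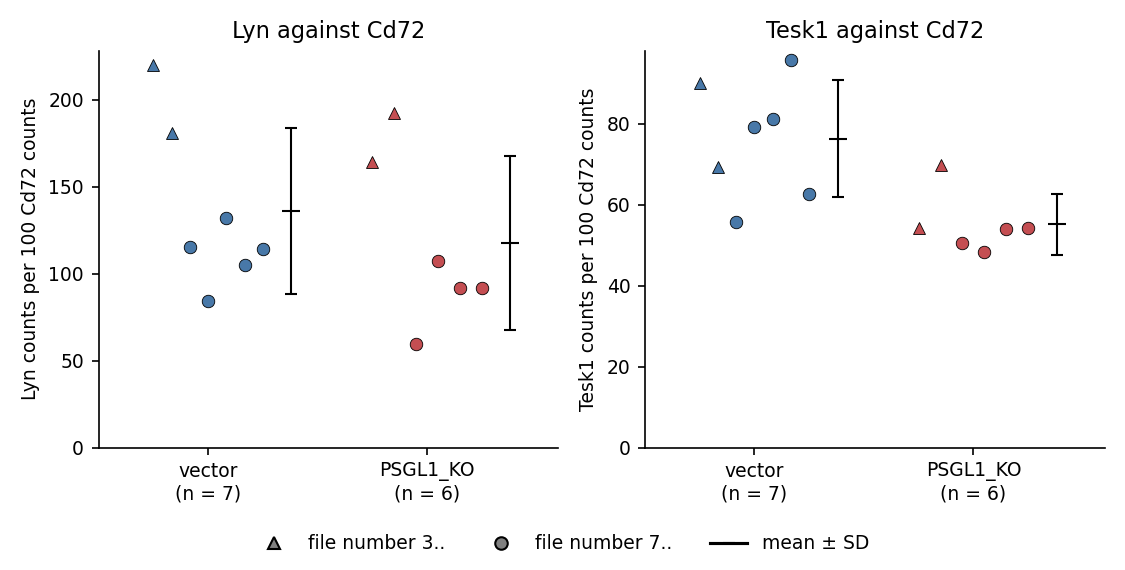
Counts of Lyn (left) and of Tesk1 (right) per 100 counts of Cd72 in each library, with mean ± SD in black. Triangles (file number 3) lie at 164 to 220 for Lyn, above every circle (file number 7), in both groups.

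The log2FC between the groups was above 0 within each file number for all 3 genes. The genes were chosen by this contrast in the same libraries, so these values are a description and not a replication. For Pax5 the groups overlapped within file number 7, and its 2 vector libraries of file number 3 lay far apart, at 3.84 and 12.2 CPM. Within file number 7 (5 vector and 4 PSGL1_KO libraries) the log2FC was 1.95 for Lyn, 2.25 for Cd72 and 0.58 for Pax5. Within file number 3 (2 libraries a group) it was 2.41, 2.59 and 0.90. The test of whether the group difference itself depended on the file number passed for 0 of the 3 genes in edgeR, with 0 at an unadjusted p under 0.05, and for 0 in DESeq2. Over all IDs 2.11% passed that test. The intervals were wide: the group difference in file number 7 minus that in file number 3 was -0.42 for Lyn (95% interval -1.08 to 0.24), -0.30 for Cd72 (-0.81 to 0.22) and -0.29 for Pax5 (-1.45 to 0.87).

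**Figure D3:**
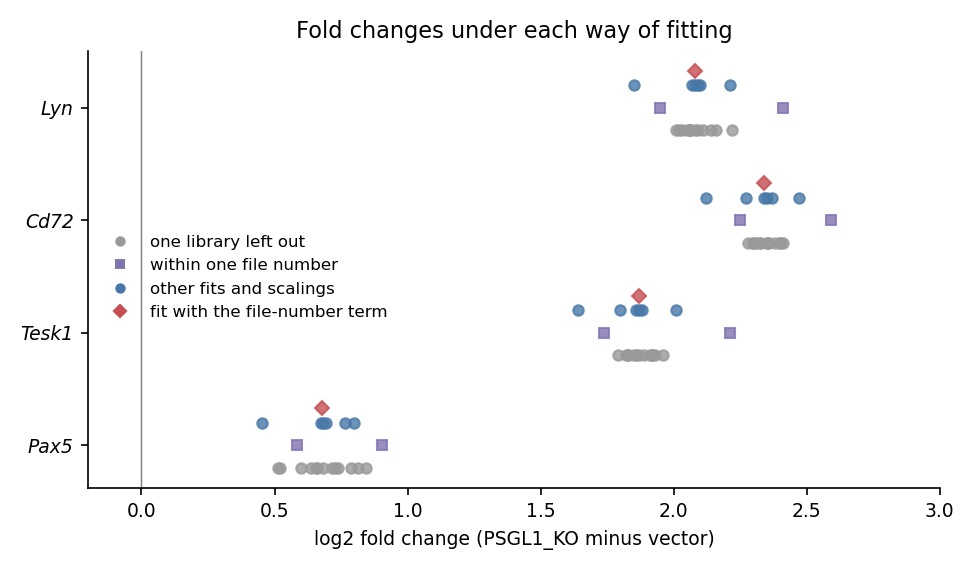
Log2FC of Lyn, Cd72, Tesk1 and Pax5 under each way of fitting, 1 point per fit, on a horizontal axis that includes 0. Every point lies above 0, and the lowest point of Pax5 is 0.45.

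Genes beside Lyn and Cd72 differed far less between the groups than these 2 genes did, Tesk1 excepted. Lyn and Cd72 were chosen by this difference, so smaller differences beside them are a description only. Upstream of Lyn, Tmem68, a transmembrane protein gene, had a log2FC of 0.49 (adjusted p = 0.0047) and Tgs1, trimethylguanosine synthase, which further methylates the cap of small nuclear RNAs, 0.48 (adjusted p = 0.00051). On the other side Rps20 was lower, at 5570 ± 1370 CPM (SD, n = 6) in PSGL1_KO, and its log2FC was -0.60 with adjusted p = 0.017. Plag1 and Chchd7 followed with 0.50 and 0.27 and did not pass. Plag1 passed within file number 7 (0.79, adjusted p = 0.017), with library totals (0.043) and on leaving out vector replicate 1 (0.037) or PSGL1_KO replicate 2 (0.018). Chchd7 passed within file number 3 (0.72, adjusted p = 0.003) and with library totals (0.024). Tmem68 and Tgs1 did not pass without the file-number covariate, with adjusted p of 0.084 and 0.088. Tmem68 also did not pass with factors from the checked stretches (0.092). Rps20 did not pass when PSGL1_KO replicate 4, 5 or 6 was left out, with adjusted p from 0.062 to 0.069, or with the replicate number as a block (0.069), and within file number 3 its log2FC was 0.03.

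Around Cd72, the group difference changed sign within a short distance. Sit1, which encodes an inhibitory adaptor of T-cell receptor signalling and whose centre lies 32.4 kb from that of Cd72, was lower in PSGL1_KO. Vector libraries had 30.1 ± 9.30 CPM (SD, n = 7) and PSGL1_KO libraries 15.01 ± 2.41 CPM (SD, n = 6). The log2FC was -0.99 ± 0.16 with adjusted p = 8.2e-05 in the edgeR test, and all 6 PSGL1_KO libraries were below every vector library. Of the 375 tested IDs of the checked stretches, 9.87% were called lower. The share of IDs separated in this direction is not given here. On the side of Tesk1, Rusc2 had 0.64 (adjusted p = 0.0034) and Atp8b5, a lipid flippase gene, 0.76 (adjusted p = 0.0013). Within file number 3 neither passed, with adjusted p of 0.39 and 0.056, and Rusc2 did not pass without the covariate either (adjusted p = 0.16) or with factors from the checked stretches (0.059). Ccdc107 and Arhgef39, beyond Sit1, had 0.34 and 0.22 and did not pass. Ccdc107 passed with library totals (0.47, adjusted p = 0.0048) and on leaving out vector replicate 5 (0.024) or PSGL1_KO replicate 1 (0.05 after rounding) or 6 (0.026). Arhgef39 passed on leaving out vector replicate 5 (0.36, adjusted p = 0.049).

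Around Pax5, 0 of the 5 neighbouring genes reported passed the edgeR test, with 0 at an unadjusted p under 0.05 and 0 in DESeq2. Gne, the entry enzyme of sialic acid synthesis, had 0.03 and Melk, a mitotic kinase, -0.09. Zcchc7 had -0.05, Grhpr -0.13 and Zbtb5 -0.10. With factors from the checked stretches 3 of the 5 passed as lower, namely Zbtb5 (-0.32, adjusted p = 0.028), Melk (-0.32, 0.045) and Grhpr (-0.37, 0.048), and Grhpr also did within file number 7 (-0.39, 0.049). Those factors shift the median log2FC of all IDs to -0.25. In DESeq2, Melk alone of the genes named here passed the test of the dependence on file number, with -0.84 and adjusted p = 0.023. In edgeR 0 of them did, with 10 at an unadjusted p under 0.05.

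**Figure D4:**
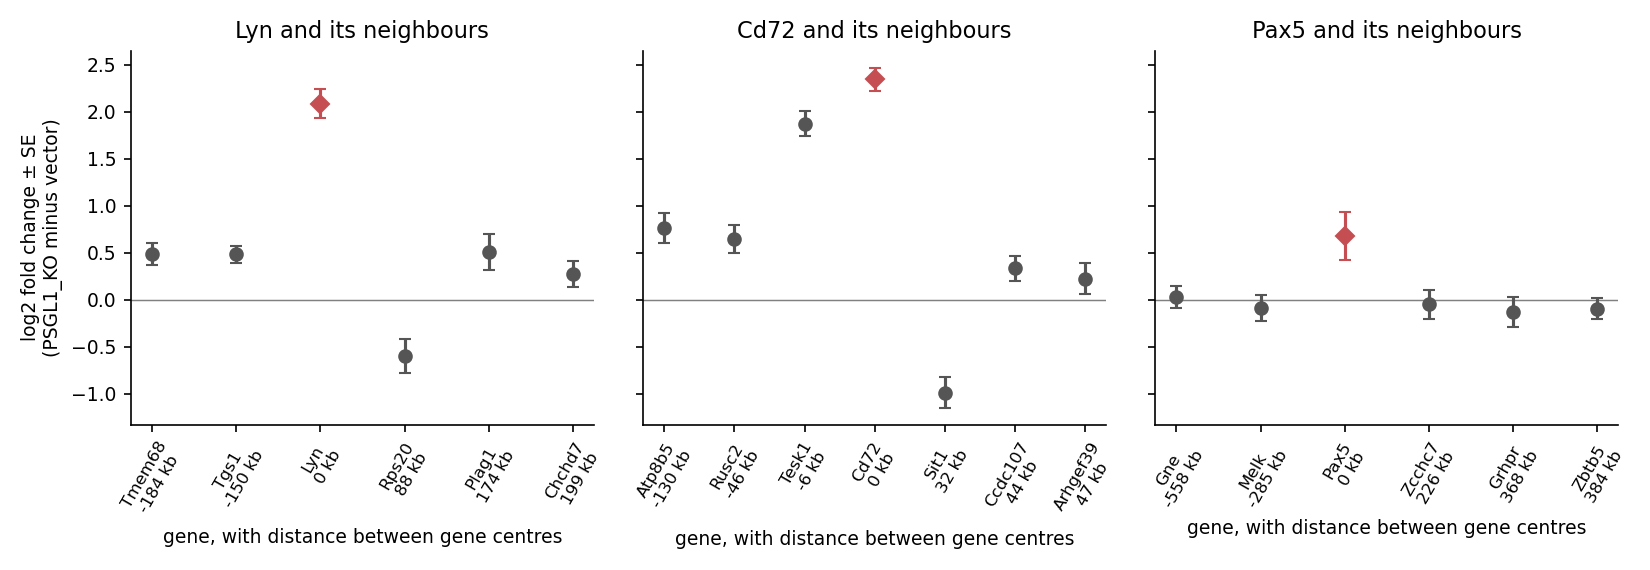
Log2FC ± SE of Lyn, Cd72 and Pax5 (red diamonds) and of the tested protein-coding neighbours reported (grey points), ordered along chromosome 4 with distances between gene centres in kb. Lyn at 2.08, and Cd72 at 2.34 with Tesk1 at 1.87, stand above their other neighbours. Lyn and Cd72 were chosen by this difference.

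The rest of the B-lineage pathway could be read in part only. Of 86 other listed genes of antigen receptor signalling, inhibitory receptors, B-lineage transcription factors, B-cell growth and chemokines, and Src-family kinases, 13 lay in the checked stretches and 10 had enough counts to be tested. The antigen receptor chains Cd79a and Cd79b, the co-receptor Cd22, the kinases Syk and Btk, the phosphatase Ptpn6 (SHP-1) and every other Src-family kinase lay outside, and their values are not used here. Of the 10 tested, 4 were higher, 1 was lower and 5 did not pass, and their median log2FC was 0.22. That is 5 of 10 against 40.3% of the IDs in the checked stretches.

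Among antigen receptor signalling genes, Shb, an SH2 adaptor, was higher in PSGL1_KO, with 56.9 ± 14.1 CPM against 46.1 ± 19.3 CPM (log2FC 0.44, adjusted p = 0.037). Map3k7, the kinase TAK1 that carries the receptor signal to NF-kB, had 361.0 ± 58.0 and 393.2 ± 70.4 CPM, a log2FC of 0.10 with adjusted p = 0.48. Ripk2, a kinase of innate NF-kB signalling, had 0.03 with adjusted p = 0.88. Among inhibitory genes, Sit1 fell, as given above, and Ptpn3, a tyrosine phosphatase, had 2.85 ± 1.70 and 5.42 ± 2.70 CPM, a log2FC of 0.96 with adjusted p = 0.071. Ptpn3 passed with the replicate number as a block and with library totals (adjusted p = 0.036 for each), and with no filter or when vector replicate 5 or PSGL1_KO replicate 3 was left out (0.03 for each).

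Among the transcription factors, Bach2, a repressor that keeps B cells from becoming plasma cells and is also active in T cells, was higher in PSGL1_KO, at 4.09 ± 1.6 CPM (SD, n = 6) against 1.81 ± 0.37 CPM (SD, n = 7). Its log2FC was 1.17 ± 0.29 with adjusted p = 0.0044 in the edgeR test, and 5 of 6 PSGL1_KO libraries exceeded the highest vector library, on at most 34 counts. Klf4, a zinc-finger factor of monocytes, epithelia and resting B cells, was higher too, with 25.9 ± 11.5 CPM against 14.7 ± 6.05 CPM (log2FC 0.81, adjusted p = 0.043). Zbtb5 had -0.10 and did not pass. In the growth list Fbxo10, an F-box protein that targets BCL2, rose by 0.34 on the log2 scale (adjusted p = 0.042), and Il7r, the interleukin-7 receptor of lymphoid progenitors and T cells, had -0.08 with adjusted p = 0.72. Ccl19, Ccl21a and Ccl21b, chemokines with near-identical copies in the genome, had 0 counts in every library and are not interpreted.

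Of these calls, Sit1 passed under every alternative tried, and Bach2 under every alternative that tested it, which fits within file number 3 did not. The other 3 calls were lost under several. Without the file-number covariate Shb, Klf4 and Fbxo10 did not pass, with adjusted p of 0.52, 0.075 and 0.43. The fit within file number 7 gave 0.35, 0.19 and 0.1, and Fbxo10 was also lost with the block, with no filter and within file number 3 (0.14, 0.16 and 0.27). Shb was lost when vector replicate 1, 2, 5 or 6 or PSGL1_KO replicate 1, 2, 4 or 6 was left out (adjusted p from 0.052 to 0.1). Klf4 was lost on leaving out vector library 1, 2, 3, 4, 5 or 7, or library 2, 4 or 6 of PSGL1_KO (0.055 to 0.12). Fbxo10 was lost on leaving out vector library 1, 2, 5, 6 or 7, or library 2, 5 or 6 of PSGL1_KO (0.054 to 0.1). With factors from the protein-coding genes of the checked stretches, the log2FC of Shb was 0.21, that of Klf4 0.56 and that of Fbxo10 0.11, and none of the 3 passed, while Map3k7 and Ripk2 turned to -0.13 and -0.20.

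**Figure D5:**
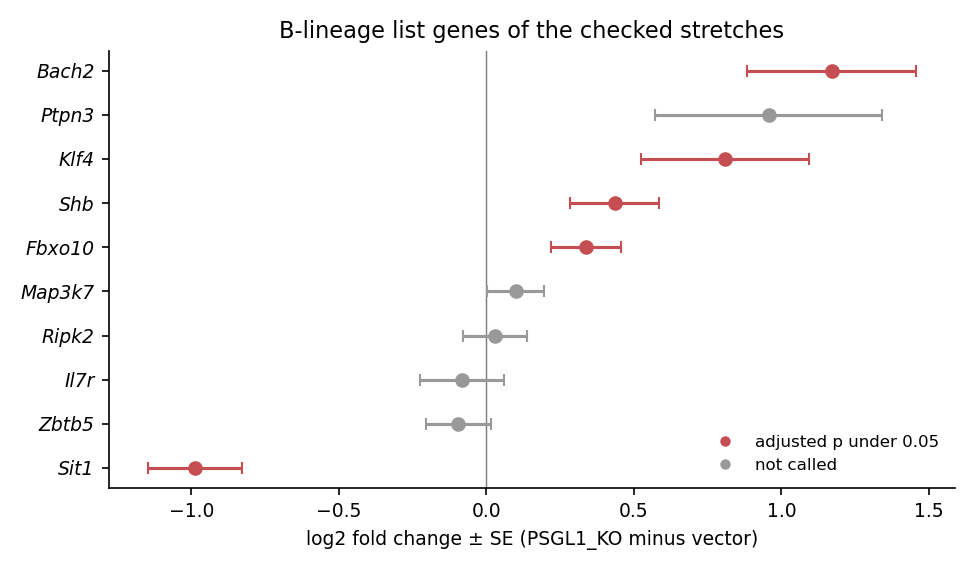
Log2FC ± SE of the 10 tested B-lineage list genes other than Lyn, Cd72 and Pax5, red where the adjusted p was under 0.05 and grey where it was not. Values run from -0.99 for Sit1 to 1.17 for Bach2.

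Some markers of other cell types differed between the groups beside Lyn and Cd72, and others did not pass. The markers were listed with earlier results of these data known, so their calls are given as a description. Of the 375 tested IDs of the checked stretches, 30.4% were called higher in PSGL1_KO and 9.87% lower. Of 6 macrophage markers listed, 2 lay in the checked stretches, and both rose: Tfec, a transcription factor of that lineage, had a log2FC of 1.40 (adjusted p = 7.9e-06) and Atp6v0d2, a proton pump subunit, 1.13 (adjusted p = 0.00017). Their summed level was 25.4 to 79.8 CPM in vector and 89.0 to 210.4 CPM in PSGL1_KO libraries. Most of it was Atp6v0d2, with means of 55.0 ± 21.9 and 109.7 ± 43.0 CPM (SD). On its own, Atp6v0d2 exceeded its highest vector library in 4 of the 6 PSGL1_KO libraries. Of single tested IDs of the checked stretches, 10.1% had all PSGL1_KO libraries above all vector libraries. Stromal cells lack CD45 and a sort on it should remove them. Of 9 stromal markers, all in the checked stretches, 7 were tested and 3 rose, namely Svep1, Reck and Sdc2, while Col1a2, Col15a1, Tpm2 and Cdh6 did not pass. Their summed level was 807.6 to 2354 CPM and 942.8 to 4393 CPM, mostly from Col1a2, with means of 1418 and 2598 CPM. Of 7 T-cell markers, 3 lay in the checked stretches, of which Sit1 fell and Il7r and Tox did not pass. Their sums were 428.9 to 600.4 and 354.4 to 550.4 CPM, mostly from Tox, with means of 368.3 and 313.3 CPM. The erythroid marker Hemgn had a log2FC of -0.62 and did not pass (adjusted p = 0.18). Of 6 B-cell markers, Pax5 and Cd72 were the 2 in the checked stretches, and the defining markers Cd79a, Cd79b and Ms4a1, as well as Ptprc, which encodes CD45, were outside them and are not analysed here. None of the markers in the checked stretches was at 0 in every library. The part of these cell types in the Lyn and Cd72 values was not tested.

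Variation between libraries that was left after the group and file-number means had been removed was compared between genes over the 13 libraries, as a description. These points share library, depth and scaling, and each member was set against the 374 other tested IDs of the checked stretches. Lyn and Cd72 had Pearson's r of 0.59 and Spearman's rho of 0.65, which put Cd72 at place 61 of the 374 by likeness to Lyn. Cd72 and Tesk1 had r = 0.48 and rho = 0.52, and Cd72 and Pax5 had r = 0.05 and rho = 0.06. Lyn and Pax5 had r = -0.29 and rho = -0.28. PSGL1_KO replicate 3 shows the contrast between Lyn and Pax5, with the lowest Lyn of its group, 150.3 CPM, and the highest Pax5, 18.8 CPM. Its Cd72, 252.6 CPM, was below the PSGL1_KO mean of its file number, 270.5 ± 34.8 CPM (SD, n = 4).

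The pattern most like that of Lyn was that of Basp1, a membrane-attached signalling protein gene, with r = 0.90 and rho = 0.86. Glipr2 (r = 0.84), the cholesterol exporter gene Abca1 (0.84), Tmem168 (0.83) and Pon2 (0.78) followed, with rho from 0.75 to 0.83. Between the groups Basp1 had a log2FC of 0.95 (adjusted p = 0.00012) and Glipr2 1.20 (adjusted p = 6.8e-06). Abca1 had 0.34 (adjusted p = 0.028), a call lost without the covariate (0.091), with the block (0.087), with factors from the checked stretches (0.38), within file number 7 (0.15) and on leaving out vector library 2, 4 or 6 or library 2 or 4 of PSGL1_KO (0.052 to 0.088). Tmem168 (0.26, adjusted p = 0.071) and Pon2 (-0.13, adjusted p = 0.5) did not pass. Tmem168 passed with library totals (0.021) and on leaving out PSGL1_KO replicate 3 (0.044), and Pon2 passed as lower with factors from the checked stretches (-0.36, 0.011). Most like Cd72 were the co-chaperone gene Dnaja1 (r = 0.87, rho = 0.87), Tdrd7 (0.85), the lysosomal membrane protein gene Laptm4b (0.84), the RNA exosome gene Exosc3 (0.78) and Amacr (0.73). Tdrd7 and Laptm4b had log2FC of 0.59 (adjusted p = 4e-04) and 0.68 (adjusted p = 0.0015), and Dnaja1, Exosc3 and Amacr did not pass. Dnaja1 passed with library totals (0.03) and within file number 3 (0.57, adjusted p = 0.014), and Exosc3 passed as lower with factors from the checked stretches (-0.27, 0.018). The genes most like Pax5 were less alike, with r from 0.61 to 0.69, and were the pseudogenes Gm49195 and Gm16042, the unclassified Gm44380, the hypoxia-induced carbonic anhydrase gene Car9 and the thioredoxin gene Txn1. Of these Car9 passed (log2FC 1.32, adjusted p = 6.1e-05) and the other 4 did not. Pax5 had 15 to 101 counts a library, and Gm49195 and Gm44380 averaged 2.36 and 3.01 CPM. The part of sampling noise in their lower r was not tested. Gm16042 passed as lower with factors from the checked stretches (-0.48, adjusted p = 0.0011), within file number 7 (-0.42, 0.014) and on leaving out vector replicate 1 (0.044), and Txn1 passed within file number 3 (0.74, 0.0012).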

How the data were processed

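For each of 13 libraries the authors deposited raw, whole-number counts of reads by gene. The submitters' processing notes name mm10 as the build and HISAT2, SAMtools and HTSeq as tools. Which versions and gene annotation were used, and whether strand was, is not given in the sources used here. The summary rows of HTSeq entered neither library sizes nor tests. Of each column's total, 67.3% to 75.4% was over no feature and 10.5% to 12.5% over gene IDs. Vector replicate 5 had the lowest share over no feature and the highest over gene IDs. It also had the highest share not aligned uniquely, 13.6% against a median of 8.5%, and the lowest TMM factor, 0.746. Symbols matched 52073 of 56923 IDs, placed with GENCODE M21 (GRCm38); 52036 of these carry a higher ID version in the files than in that release. Stretches where names match counts were taken from earlier work on these data. The members, gene lists, cell-type markers and stretches were chosen with earlier results of these data known.

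edgeR 4.0.16 in R 4.3.3 was used with TMM factors, filterByExpr, robust quasi-likelihood fits, terms for group and file number, and Benjamini-Hochberg adjustment over 10422 IDs, with a threshold of 0.05. SEs were derived from the F statistic. The script was tested on simulated data. Genes were named by rule: the members, Tesk1, tested list genes, up to 3 neighbours a side, overlapping genes and the 5 most alike genes per member (log2 CPM, prior count 2). Only 2 tested neighbours lie before Lyn in its stretch, and 1 neighbour of Pax5 is not reported here. Alternatives were DESeq2 1.42.0, other scalings, no filter, no covariate, a replicate block, subsets by file number and leaving out each library.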

Additional observations from a re-analysis of the deposited data

Results flagged for a closer look

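Each named gene was examined in both groups for 1 library standing apart from the rest by Dixon's criterion, in 84 sets of values, and 5 sets had such a library. Chance gives about 1 in 20 for independent sets, and these sets share libraries. None of the 5 concerned Lyn, Cd72, Pax5 or Tesk1. Vector replicate 5 had the highest Arhgef39 of its group, 91.3 CPM (next 58.2 CPM), and the highest Zcchc7, 326 CPM (next 219 CPM). PSGL1_KO replicate 3 had the highest Arhgef39 of its group, 90.1 CPM (next 65.8 CPM), and the highest Zcchc7, 276 CPM (next 198 CPM). PSGL1_KO replicate 2 had the highest Gm44380, 4.64 CPM (next 2.97 CPM).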

How the results depend on the processing

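The log2FC of Lyn, Cd72, Tesk1 and Pax5 was above 0 under every alternative tried. Within file number 3, Cd72 moved to 2.59 and Tesk1 to 2.21, beyond the spread between libraries. Without 1 library, Lyn ranged from 2.01 to 2.22, Cd72 from 2.28 to 2.41, Pax5 from 0.51 to 0.84 and Tesk1 from 1.79 to 1.96. The file-number difference of Cd72 passed under all alternatives tried, at 0.93 to 1.11 without 1 library. That of Lyn turned to -0.13 within PSGL1_KO and ranged from -0.0697 to 0.161 without 1 library, and that of Pax5 turned to 0.0336 with factors from the checked stretches and 0.0319 within vector, ranging from -0.416 to 0.0336 without 1 library. The cause was not tested.

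Between the groups 1512 IDs passed without the file-number covariate, against 2689 with it, and 2211 to 2899 without 1 library. Factors from the checked stretches moved the median log2FC of all IDs from -0.02 to -0.25 and the share of higher calls from 53.4% to 23.1%, and library totals without TMM moved them to 0.12 and 76.8%. For the dependence on file number 532 IDs passed with DESeq2, against 220, and 3 to 661 without 1 library (3 without PSGL1_KO replicate 2, 661 without vector replicate 5). B-lineage list genes called were 2 without the covariate and within file number 7, 3 within file number 3 and with factors from the checked stretches, and 2 to 6 without 1 library, against 5.

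With group means removed, same-numbered libraries had correlations from -0.06 to 0.66, and 2 of 6 PSGL1_KO libraries correlated best with their own number. With the file-number means removed as well, the correlations ran from -0.57 to 0.27. The numbers were not taken as pairs. With the replicate block 2140 IDs passed, 5 list genes were called, and the log2FC was 2.10 for Lyn, 2.37 for Cd72, 0.77 for Pax5 and 1.86 for Tesk1.

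The direction of some other named genes turned, 1 of them, Rps20, called in the reported fit. With factors from the checked stretches Map3k7 had -0.126, Ripk2 -0.203, Arhgef39 -0.00828, Gne -0.207, Amacr -0.0621 and Txn1 -0.053. With library totals Zbtb5 had 0.0463, Il7r 0.0533, Melk 0.031, Zcchc7 0.107, Exosc3 0.0753 and Gm44380 0.0495. Within file number 7 Ripk2 had -0.0837, Gne -0.0712, Amacr -0.00792 and Txn1 -0.0718. Within file number 3 Rps20 had 0.0302, Plag1 -0.0819, Zbtb5 0.067, Il7r 0.425, Melk 0.498, Grhpr 0.502, Pon2 0.193, Exosc3 0.0943, Gm16042 0.127 and Gm44380 0.094. Without the covariate Gne had -0.0161, and with the block Gm44380 had 0.0525. Without 1 library Ripk2 ranged from -0.00292 to 0.072, Gne from -0.0536 to 0.0967, Gm49195 from -0.309 to 0.0344, Gm44380 from -0.24 to 0.101, Zcchc7 from -0.168 to 0.0861, Il7r from -0.15 to 0.0365 and Melk from -0.174 to 0.0259. Depth limits Bach2, with at most 34 counts a library, and Pax5, with at most 101.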
